A study of Arabidopsis thaliana with 12 samples.

Results

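Cytochrome P450 genes were described here in dry and stratified seeds of Arabidopsis thaliana. The deposited table holds 32833 loci, and the group comprises every locus whose description contains the words "cytochrome P450", apart from 6 abscisic acid and gibberellin enzymes that were left out. This gave 189 members. The matching locus CYP707A1 was among the enzymes left out, and the other enzymes left out have descriptions without these words. The choice goes by wording. It takes in ATR1, a reductase that feeds electrons to P450 enzymes and is not itself one, and it misses 56 further loci that carry a P450 symbol but are described by another name, such as CYP90A1, CYP73A5 and CYP51G1.

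P450 enzymes are haem proteins, mostly anchored in the endoplasmic reticulum, that use molecular oxygen and electrons from NADPH to hydroxylate or otherwise oxidise small molecules. Plants carry a large and often tandemly duplicated set of them, which makes and inactivates hormones, builds lignin, cutin, sterols and carotenoids, and produces defence compounds such as glucosinolates and camalexin. Members of the same numbered family, such as CYP71 or CYP72, share more protein sequence with each other than with other families. In seeds they are known for hormone metabolism and for phenolic and lipid barriers.

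Messenger RNA was sequenced in 4 groups of 3 libraries each, all from seeds of ecotype Col-0. The groups were stratified and dry seeds of a line labelled atalkbh1a1b, a mutant in the DNA N6-adenine demethylase genes AtALKBH1A and AtALKBH1B, and stratified and dry wild-type seeds. Stratified seeds had been held in water at 4 °C for 2 days, and dry seeds are the 0 day samples. There was no imbibed group without cold, so cold, water uptake and time cannot be told apart. The labels do not say whether libraries came from separate plants or seed lots, so the p-values cover only the variation among these libraries, part or all of which may be technical. In whole seeds, fewer cells of a type and less RNA per cell cannot be told apart.

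Values are RPKM, reads scaled to transcript length and library depth. The spacing of low values gave a depth of 17.8 to 23.0 M reads per library. Seed storage and late embryogenesis genes (CRA1, CRU3, OLEO1, EM6) were high in every library, and the root hair gene EXPA7 was listed at 0 in all. Markers of leaf and pollen were not absent. The leaf gene RBCS1A had means of 73.6 RPKM in stratified and 9.61 RPKM in dry atalkbh1a1b seeds. In wild type its means were 227 RPKM in stratified and 17.5 RPKM in dry seeds. The leaf gene LHCB1.3 was above 1 RPKM in every library. The pollen marker AT5G45880 had means of 1.69 RPKM in dry atalkbh1a1b and 2.83 RPKM in dry wild-type seeds. Absence of other tissues was therefore seen for EXPA7 only. As a check of the genotype, AT5G01780, an oxoglutarate-dependent dioxygenase, had 0.436, 0.499 and 0.236 RPKM in stratified atalkbh1a1b seeds, against 6.58, 6.69 and 4.29 RPKM in stratified wild-type seeds. Which loci were targeted is not given in the sources used here, and AT1G11780, another gene of that family, was present in every library. Stratified libraries of a group differed among themselves. Nuclear ribosomal RNA took 15.1% and 29.3% of reads in stratified atalkbh1a1b libraries 1 and 3, 10.8% in dry atalkbh1a1b library 2 and 15.4% in stratified wild-type library 3, and 3.05% to 5.91% in the other 8. Across genes, stratified wild-type library 3 was closer to the stratified atalkbh1a1b libraries 1, 2 and 3 (r = 0.985, 0.953 and 0.980) than to wild-type libraries 1 and 2 of the same state (r = 0.916 and 0.890).

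Most P450 genes were listed at 0 or stayed below 1 RPKM in these seeds. Of the 189 members, 44 were listed at 0 in all 12 libraries and 77 more stayed below 1 RPKM in each library. A further 8 reached 1 RPKM in fewer than 3 libraries. The remaining 60 had at least 1 RPKM in at least 3 libraries and were tested, and 30 members reached 10 RPKM in at least 1 library. Of all 32833 loci, 15145 passed the same filter. The 60 were kept by their level, so counts over them do not describe all 189.

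In dry seeds a few members held much of the P450 transcript. The 6 highest made up 40.2% of summed member RPKM in stratified and 44.0% in dry atalkbh1a1b seeds, and 34.5% in stratified and 44.0% in dry wild-type seeds. CYP72A13 had the highest level of any member, at 63.6, 50.8 and 57.4 RPKM in dry atalkbh1a1b libraries, against 71.5, 72.3 and 70.6 RPKM in dry wild-type libraries. CYP89A5, CYP702A6, CYP89A2, CYP72A15 and CYP98A3 followed it in dry seeds of both genotypes, with means of 32.8 to 50.6 RPKM in atalkbh1a1b and 37.7 to 69.1 RPKM in wild type. In stratified seeds CYP71A26 joined the highest members, at 39.3 ± 9.83 RPKM in atalkbh1a1b and 22 ± 17.5 RPKM in wild type (SD, n = 3 each). CYP98A3 is the phenolic ring hydroxylase of lignin synthesis.

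Summed over the 189 members, stratified atalkbh1a1b libraries 1, 2 and 3 held 546, 659 and 301 RPKM, against 655, 492 and 631 RPKM in dry ones. Stratified wild-type libraries held 389, 422 and 589 RPKM, against 733, 731 and 750 RPKM in dry ones. The wild-type sums did not overlap between states, while the atalkbh1a1b sums did. The RPKM sum combines members that rose and members that fell. These sets were picked by their wild-type calls, so the rise and fall of their wild-type sums is built in. The 16 members that rose in wild type summed to 127, 117 and 70.6 RPKM in stratified and 17.1, 14.3 and 17.1 RPKM in dry atalkbh1a1b libraries, and to 128, 143 and 113 RPKM in stratified and 16.3, 16.3 and 17.8 RPKM in dry wild-type libraries. The 25 that fell in wild type summed to 205, 293 and 112 RPKM in stratified and 452, 335 and 429 RPKM in dry atalkbh1a1b libraries, and to 123, 116 and 221 RPKM in stratified and 521, 519 and 537 RPKM in dry wild-type libraries.

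**Figure D1:**
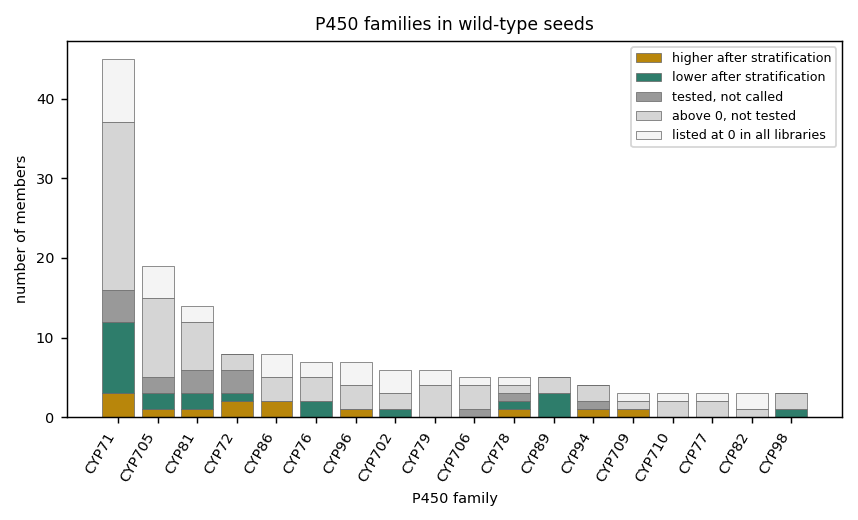
P450 families with at least 3 members, by what their members did in wild-type seeds; bar height is the number of members and colours give the outcome, with limma adjusted p under 0.05 as the call. The CYP71 family has 45 members, of which 9 fell and 3 rose after stratification, and none of the 6 CYP79 members was high enough to test.

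After stratification, 15 members rose and 17 fell in atalkbh1a1b seeds, and 16 rose and 25 fell in wild-type seeds (limma on log2(RPKM + 1), Benjamini-Hochberg adjusted p under 0.05 over 15145 genes). In atalkbh1a1b the risers were 25% of the 60 tested members, where 43.4% of all tested genes rose, and the fallers 28.3%, where 15.2% of all tested genes fell. In wild type the risers were 26.7%, where 49.8% of all tested genes rose, and the fallers 41.7%, where 18.9% of all tested genes fell. The median log2 change of the tested members was -0.12 in atalkbh1a1b and -0.47 in wild type, against 0.50 and 0.64 for all tested genes. Centring each library on its median moved the median change of all genes by -0.47 in atalkbh1a1b and -0.57 in wild type. The members then split into 14 risers and 29 fallers in atalkbh1a1b and 14 and 36 in wild type. Of all 15145 tested genes, 4981 then rose and 5121 fell in atalkbh1a1b, and 5870 and 5561 in wild type. With quantile normalization the members split into 12 and 32 in atalkbh1a1b and 12 and 39 in wild type. All tested genes then split into 4904 and 5300 in atalkbh1a1b and 5560 and 5750 in wild type. In the main fit the fallers among all tested genes were 2308 in atalkbh1a1b and 2862 in wild type. Without the filter on low values 32 members rose and 27 fell in wild type, 15 and 23 of them being the same genes as above, and 17 rose and 19 fell in atalkbh1a1b. Counts over all genes without the filter are not given here. In wild type the stratified and dry libraries of all 41 called members did not overlap, and in atalkbh1a1b those of 1 faller did, CYP705A22. The calls come from the same libraries, so little overlap is built into them. The share without overlap among all called genes was not counted.

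**Figure D2:**
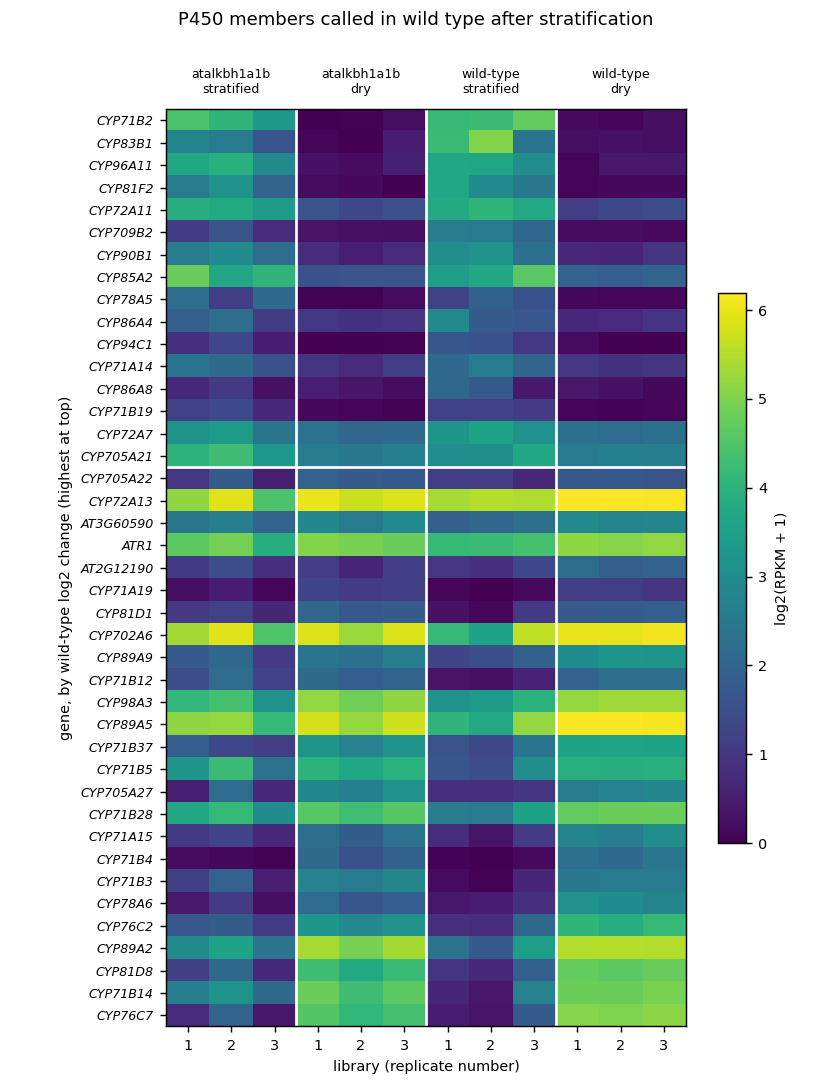
Level of the 41 members called in wild-type seeds, as log2(RPKM + 1), in each of the 12 libraries; rows run from the highest to the lowest log2 change in wild type and the white line divides the 16 risers from the 25 fallers. Stratified wild-type library 3 holds the highest of its group's values for 23 of the 25 fallers.

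The libraries that differed in ribosomal RNA and seed transcripts also differed in these genes. The 6 seed storage and late embryogenesis genes together held 3.91%, 5.16% and 2.70% of summed RPKM in stratified atalkbh1a1b libraries 1, 2 and 3 and 12.5% to 13.2% in dry ones, and 2.11%, 1.47% and 6.51% in stratified wild-type libraries and 12.7% to 13.2% in dry ones. Stratified wild-type library 3, the highest of its group in these seed transcripts, was the highest of its group for 23 of the 25 members that fell and the lowest for 12 of the 16 that rose. Stratified atalkbh1a1b library 2, the highest of its group in them, was the highest of its group for 23 of the 25. Stratified atalkbh1a1b library 3, with 29.3% ribosomal RNA, was the lowest of its group for 38 of the 41 called members. Its RPKM summed over all loci was also the lowest of its group, at 451481, against 579603 and 575236 in libraries 1 and 2. Such counts were not made over all tested genes, so they are not shown to be particular to P450 members. The part of these library differences in the results was not tested.

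Of the 3 tested brassinosteroid enzymes in the group, CYP85A2 and CYP90B1 rose in both genotypes. Brassinosteroids are growth hormones that promote germination, and their synthesis runs through CYP90B1 (DWF4), which hydroxylates the side chain, and ends with CYP85A2, which makes brassinolide. CYP85A2 had 26.4, 12 and 15.6 RPKM in stratified atalkbh1a1b seeds, against 1.94, 2.09 and 2.13 RPKM in dry ones, and 9.98, 12.2 and 23.3 RPKM in stratified wild-type seeds, against 2.83, 2.6 and 3.03 RPKM in dry ones. Every stratified library was above every dry one, and the log2 change was 2.57 ± 0.31 (SE, limma adjusted p = 2.99e-06) in atalkbh1a1b and 2.00 ± 0.31 (SE, limma adjusted p = 2.32e-05) in wild type. CYP90B1 had 5.22, 6.92 and 3.55 RPKM in stratified and 0.733, 0.443 and 0.678 RPKM in dry atalkbh1a1b seeds, and 7.27, 8.13 and 3.84 RPKM in stratified and 0.607, 0.592 and 0.905 RPKM in dry wild-type seeds. It too did not overlap between states, and the log2 change was 1.91 ± 0.27 (SE, limma adjusted p = 1.69e-05) in atalkbh1a1b and 2.08 ± 0.27 (SE, limma adjusted p = 3.98e-06) in wild type. CYP72C1, which inactivates brassinosteroids, did not pass the test in either genotype, and 34.7% of its exon bases lie under AT1G17065. CYP85A1, a close relative of CYP85A2, was listed at 0 in all 12 libraries. Of the 4 brassinosteroid genes outside the group, 3 were tested: CYP90A1 (CPD) rose to 31.8 RPKM in stratified atalkbh1a1b seeds, against 2.15 RPKM in dry ones, and to 26.1 RPKM in stratified wild-type seeds, against 3.3 RPKM in dry ones. CYP734A1, an inactivating enzyme, also rose in both genotypes, and CYP90C1 passed as lower in wild type and did not pass in atalkbh1a1b, with log2 changes of -0.32 ± 0.30 (SE, limma adjusted p = 0.369) in atalkbh1a1b and -0.80 ± 0.30 (SE, limma adjusted p = 0.0256) in wild type, a call lost without dry wild-type library 2 or 3.

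Of the enzymes of indole glucosinolate synthesis, CYP83B1 and CYP81F2 were close to 0 in dry seeds and rose after stratification in both genotypes. The first, CYP83B1, channels the oxime made by CYP79B2 and CYP79B3 from tryptophan into indole glucosinolates, and CYP81F2 hydroxylates the finished compound. CYP83B1 had 5.95, 4.89 and 2.05 RPKM in stratified and 0.0593, 0 and 0.395 RPKM in dry atalkbh1a1b seeds, and 17.7, 31.5 and 4.21 RPKM in stratified and 0.167, 0.233 and 0.169 RPKM in dry wild-type seeds. Stratified wild-type library 3, at 4.21 RPKM, lay within the range of the stratified atalkbh1a1b libraries. The log2 change was 2.13 ± 0.46 (SE, limma adjusted p = 0.000823) in atalkbh1a1b and 3.63 ± 0.46 (SE, limma adjusted p = 2.73e-06) in wild type. CYP81F2 had 5.18, 8.13 and 2.95 RPKM in stratified and 0.159, 0.0929 and 0 RPKM in dry atalkbh1a1b seeds, and 11.9, 6.98 and 4.62 RPKM in stratified and 0.0771, 0.10 and 0.091 RPKM in dry wild-type seeds, again without overlap. Its log2 change was 2.49 ± 0.31 (SE, limma adjusted p = 3.96e-06) in atalkbh1a1b and 2.94 ± 0.31 (SE, limma adjusted p = 3.14e-07) in wild type. These were the only 2 of the 9 listed members of glucosinolate, camalexin and indole synthesis that reached the level for a test, and none of the 6 listed genes outside the group did. CYP79B2 was too low to test, at 0.164, 0.214 and 0.0636 RPKM in stratified and 0.237, 0.154 and 0.125 RPKM in dry atalkbh1a1b seeds, and 0.957, 3.69 and 0.893 RPKM in stratified and 0.0851, 0.332 and 0.477 RPKM in dry wild-type seeds. Its 3 highest values were those of stratified wild-type seeds.

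In the CYP86A subfamily, which hydroxylates the ends of fatty acids for cutin, CYP86A4 rose at low levels in both genotypes and CYP86A8 in wild type. CYP86A4 had 2.68, 3.65 and 1.13 RPKM in stratified and 1.02, 0.872 and 0.922 RPKM in dry atalkbh1a1b seeds, and 6.65, 2.51 and 2.2 RPKM in stratified and 0.607, 0.668 and 0.90 RPKM in dry wild-type seeds. It did not overlap between states, with log2 changes of 0.78 ± 0.32 (SE, limma adjusted p = 0.0445) in atalkbh1a1b and 1.36 ± 0.32 (SE, limma adjusted p = 0.0011) in wild type; the first call was lost when any of 8 libraries was left out and the second with quantile normalization. CYP86A8 (LACERATA) was the only riser in wild type that did not pass in atalkbh1a1b, with 0.613, 1.07 and 0.223 RPKM in stratified and 0.426, 0.29 and 0.162 RPKM in dry atalkbh1a1b seeds, and 3.24, 2.35 and 0.353 RPKM in stratified and 0.327, 0.235 and 0.101 RPKM in dry wild-type seeds. Stratified wild-type library 3 stood close to the dry ones. The call was lost with median centring, with quantile normalization and with only the stratified libraries over 10% ribosomal RNA. In wild type that last setting leaves stratified library 3 alone. The suberin enzyme CYP86A1 was listed at 0 throughout, and CYP86A2 had at most 0.907 RPKM. Of the 9 listed members for cutin, suberin, wax and sporopollenin, only CYP86A4 and CYP86A8 were tested. CYP77A6, a cutin enzyme outside the group, fell in both genotypes, with log2 changes of -0.65 ± 0.20 (SE, limma adjusted p = 0.0112) in atalkbh1a1b and -0.65 ± 0.20 (SE, limma adjusted p = 0.00908) in wild type, the wild-type call being lost with only the stratified libraries over 10% ribosomal RNA.

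Among hormone enzymes of other kinds, CYP94C1 oxidises the active jasmonate conjugate and so inactivates it. It had 0.831, 1.49 and 0.408 RPKM in stratified and 0, 0 and 0.0268 RPKM in dry atalkbh1a1b seeds, and 2.15, 1.96 and 0.998 RPKM in stratified and 0.136, 0 and 0 RPKM in dry wild-type seeds. It rose without overlap, by log2 changes of 0.88 ± 0.23 (SE, limma adjusted p = 0.0039) in atalkbh1a1b and 1.35 ± 0.23 (SE, limma adjusted p = 7.23e-05) in wild type. CYP74A, the allene oxide synthase of jasmonate synthesis and no member of the group, fell in both, by log2 changes of -0.56 ± 0.20 (SE, limma adjusted p = 0.0245) in atalkbh1a1b and -0.80 ± 0.20 (SE, limma adjusted p = 0.00215) in wild type. The atalkbh1a1b call of CYP74A was lost without dry atalkbh1a1b library 1 or 3 and with only the stratified libraries at or under 10% ribosomal RNA. CYP714A1, which inactivates gibberellin, did not pass: it had 13, 9.31 and 6.96 RPKM in stratified and 5.25, 3.6 and 6.67 RPKM in dry atalkbh1a1b seeds, and 4.27, 3.52 and 21.4 RPKM in stratified and 6.59, 6.72 and 5.69 RPKM in dry wild-type seeds. Stratified wild-type library 3 alone lay above all others. CYP711A1 (MAX1), of strigolactone synthesis, stayed at or below 0.216 RPKM, and the cytokinin hydroxylases CYP735A1 and CYP735A2 and the abscisic acid hydroxylase CYP707A4, all outside the group, were at or near 0.

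The CYP78A genes, which control organ and seed size through a growth signal not yet identified, went in opposite directions. CYP78A5 (KLUH) had 3.63, 1.21 and 3.36 RPKM in stratified and 0.0292, 0.0283 and 0.139 RPKM in dry atalkbh1a1b seeds, and 1.35, 2.78 and 1.95 RPKM in stratified and 0.0942, 0.0689 and 0.0556 RPKM in dry wild-type seeds. CYP78A6 (EOD3), which promotes seed growth, had 0.367, 1.15 and 0.201 RPKM in stratified and 3.47, 2.1 and 2.61 RPKM in dry atalkbh1a1b seeds, and 0.322, 0.414 and 0.788 RPKM in stratified and 7.73, 7.12 and 6.11 RPKM in dry wild-type seeds. Neither overlapped between states. The log2 change of CYP78A5 was 1.74 ± 0.27 (SE, limma adjusted p = 3.29e-05) in atalkbh1a1b and 1.47 ± 0.27 (SE, limma adjusted p = 0.000102) in wild type, and that of CYP78A6 was -1.28 ± 0.26 (SE, limma adjusted p = 0.000427) in atalkbh1a1b and -2.41 ± 0.26 (SE, limma adjusted p = 3.46e-07) in wild type. CYP78A7 did not pass, with log2 changes of 0.38 in atalkbh1a1b and -0.48 in wild type, and CYP78A9 stayed below 1 RPKM.

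In phenylpropanoid synthesis the lignin enzyme CYP98A3 fell. It had 16.2, 19.9 and 8.01 RPKM in stratified and 35.6, 27.8 and 35 RPKM in dry atalkbh1a1b seeds, and 8.05, 9.44 and 14.4 RPKM in stratified and 35.9, 38.4 and 38.7 RPKM in dry wild-type seeds. No library overlapped between states, and the log2 change was -1.18 ± 0.31 (SE, limma adjusted p = 0.00339) in atalkbh1a1b and -1.77 ± 0.31 (SE, limma adjusted p = 7.20e-05) in wild type. The next ring hydroxylase of the pathway, CYP84A1, did not pass, with log2 changes of 0.16 in atalkbh1a1b and 0.55 in wild type. CYP73A5, the cinnamate hydroxylase of the pathway, is outside the group. It had 17.1, 14.6 and 9.44 RPKM in stratified and 10.3, 7.83 and 9.75 RPKM in dry atalkbh1a1b seeds, and 12.3, 12.8 and 16.9 RPKM in stratified and 11.9, 12 and 12.7 RPKM in dry wild-type seeds, and did not pass either. Of the 5 listed members of this pathway 3 were tested and 1 fell, and both listed genes outside the group were tested and did not pass.

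CYP76C7 had 0.729, 3.0 and 0.312 RPKM in stratified and 22.2, 16.1 and 19.6 RPKM in dry atalkbh1a1b seeds, and 0.40, 0.268 and 2.5 RPKM in stratified and 32.6, 30.7 and 33.5 RPKM in dry wild-type seeds. It fell by log2 changes of -3.27 ± 0.39 (SE, limma adjusted p = 2.52e-06) in atalkbh1a1b and -4.18 ± 0.39 (SE, limma adjusted p = 8.44e-08) in wild type, without overlap. CYP76C2, whose family oxidises monoterpene alcohols such as linalool, had 2.23, 2.58 and 1.13 RPKM in stratified and 8.77, 6.53 and 7.87 RPKM in dry atalkbh1a1b seeds, and 0.829, 0.721 and 3.26 RPKM in stratified and 15.6, 13.5 and 16.4 RPKM in dry wild-type seeds. It was the only one of 9 listed terpenoid members that was tested, and it fell, with log2 changes of -1.58 ± 0.32 (SE, limma adjusted p = 0.000454) in atalkbh1a1b and -2.76 ± 0.32 (SE, limma adjusted p = 9.05e-07) in wild type. CYP76C1, of the same subfamily but outside the group, fell as well, to 24.6 RPKM in stratified atalkbh1a1b seeds, against 49.2 RPKM in dry ones, and to 17.4 RPKM in stratified wild-type seeds, against 56.7 RPKM in dry ones; the atalkbh1a1b call was lost without stratified atalkbh1a1b library 3.

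CYP81D8, a gene known for its induction by foreign chemicals and low oxygen, had 1.25, 3.17 and 0.633 RPKM in stratified and 18.2, 12.6 and 17.7 RPKM in dry atalkbh1a1b seeds, and 0.899, 0.60 and 2.73 RPKM in stratified and 25.4, 24 and 26.2 RPKM in dry wild-type seeds. It fell in both without overlap, with log2 changes of -2.77 ± 0.34 (SE, limma adjusted p = 4.05e-06) in atalkbh1a1b and -3.54 ± 0.34 (SE, limma adjusted p = 1.36e-07) in wild type. CYP81D11, its relative induced by the volatile cis-jasmone, did not pass, with log2 changes of -0.45 in atalkbh1a1b and 0.41 in wild type. CYP89A2 had 6.68, 11 and 4.25 RPKM in stratified and 40.6, 29.5 and 40.0 RPKM in dry atalkbh1a1b seeds, and 4.08, 2.37 and 9.85 RPKM in stratified and 44.1, 44.2 and 43.8 RPKM in dry wild-type seeds, a log2 change of -2.25 ± 0.37 (SE, limma adjusted p = 6.38e-05) in atalkbh1a1b and -2.98 ± 0.37 (SE, limma adjusted p = 1.84e-06) in wild type. All 3 tested members of its family fell in wild type and 2 of them in atalkbh1a1b, including CYP89A9, which modifies chlorophyll breakdown products. CYP89A5 did not pass in atalkbh1a1b, and 31.1% of its 50-base stretches occur elsewhere in the genome, so its reads may be split with a copy.

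The CYP71 family had the most members, 45, of which 16 were tested. In atalkbh1a1b 3 rose and 7 fell, and in wild type 3 rose and 9 fell. CYP71B14 had 5.26, 8.13 and 3.42 RPKM in stratified and 26.8, 18.3 and 23.7 RPKM in dry atalkbh1a1b seeds, and 0.584, 0.328 and 5.7 RPKM in stratified and 26.9, 26.7 and 30.1 RPKM in dry wild-type seeds. Stratified wild-type library 3 was at about the level of the stratified atalkbh1a1b libraries. It fell without overlap in both genotypes, by log2 changes of -1.90 ± 0.44 (SE, limma adjusted p = 0.00148) in atalkbh1a1b and -3.58 ± 0.44 (SE, limma adjusted p = 1.98e-06) in wild type. A share of 29.8% of its exon bases lies under AT5G25170 on the other strand, and strand use in counting is not given in the sources used here. CYP71B4 ended lowest of the fallers, at 0.16, 0.0954 and 0.0236 RPKM in stratified and 3.43, 1.88 and 2.82 RPKM in dry atalkbh1a1b seeds, and 0.0453, 0 and 0.116 RPKM in stratified and 3.84, 3.37 and 4.44 RPKM in dry wild-type seeds. Its log2 change was -1.74 ± 0.22 (SE, limma adjusted p = 3.90e-06) in atalkbh1a1b and -2.21 ± 0.22 (SE, limma adjusted p = 1.44e-07) in wild type.

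Other strong risers have no settled role. CYP96A11, a relative of the midchain alkane hydroxylase of stem wax, had 12.1, 14.4 and 6.56 RPKM in stratified and 0.242, 0.134 and 0.459 RPKM in dry atalkbh1a1b seeds, and 11.9, 11.5 and 7.21 RPKM in stratified and 0.0557, 0.326 and 0.329 RPKM in dry wild-type seeds. Its log2 changes of 3.18 ± 0.28 (SE, limma adjusted p = 1.18e-07) in atalkbh1a1b and 3.16 ± 0.28 (SE, limma adjusted p = 5.37e-08) in wild type were among the largest of the risers and nearly equal. CYP709B2 had 1.14, 1.98 and 0.739 RPKM in stratified and 0.248, 0.217 and 0.189 RPKM in dry atalkbh1a1b seeds, and 5.08, 4.84 and 3.17 RPKM in stratified and 0.16, 0.156 and 0.118 RPKM in dry wild-type seeds. Here the stratified libraries of the genotypes did not overlap.

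Sequences just upstream of CYP71B2 and CYP71B28 are printed because these adjacent genes on chromosome 1 moved in opposite directions. Each is the 250 bases before the annotated gene start on the plus strand of TAIR10.1, with the RefSeq annotation, chr1:4458752-4459001 for CYP71B2 and chr1:4461488-4461737 for CYP71B28. Capitals mark matches to 5 motifs searched on both strands, named here by their letters: CACGTG (the G-box), ACGTGNC (an abscisic acid response core), CATGCA (the RY core of seed genes), GCCGAC (a cold and drought response core) and GATAAG (the I-box). The G-box and the abscisic acid core can overlap.
CYP71B2: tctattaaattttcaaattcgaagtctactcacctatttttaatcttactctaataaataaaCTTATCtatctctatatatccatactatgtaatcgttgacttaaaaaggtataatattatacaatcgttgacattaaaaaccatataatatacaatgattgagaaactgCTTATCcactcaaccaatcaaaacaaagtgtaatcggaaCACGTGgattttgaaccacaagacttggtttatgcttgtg
CYP71B28: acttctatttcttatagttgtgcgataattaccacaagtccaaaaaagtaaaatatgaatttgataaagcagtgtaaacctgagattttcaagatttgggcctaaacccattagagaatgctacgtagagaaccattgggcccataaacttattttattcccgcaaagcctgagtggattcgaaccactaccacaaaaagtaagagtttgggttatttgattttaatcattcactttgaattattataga
The CYP71B2 window holds the G-box starting 40 bases before the gene start, and the I-box on the opposite strand starting 188 and 79 bases before it, and the CYP71B28 window holds none of the 5. Over 27443 protein-coding genes, 6.49% of such windows held the G-box, 8.57% the abscisic acid core, 8.43% the RY core, 2.56% the cold core and 12.3% the I-box. Over the 189 members 12 held the G-box, 11 the abscisic acid core, 35 (18.5%) the RY core, 4 the cold core and 31 (16.4%) the I-box. Among the 16 members that rose in wild type 2 held the G-box, 0 the abscisic acid core, 3 the RY core, 0 the cold core and 2 the I-box. Among the 25 that fell 2 held the G-box, 3 the abscisic acid core, 6 the RY core, 2 the cold core and 7 the I-box. A match is a description of the letters and no evidence of binding.

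CYP71B2 rose most of all members. It had 20.7, 15.7 and 8.96 RPKM in stratified and 0, 0.0287 and 0.168 RPKM in dry atalkbh1a1b seeds, and 17, 18 and 25.3 RPKM in stratified and 0.119, 0.0697 and 0.197 RPKM in dry wild-type seeds. The dry values stand for 0 to 6 reads per atalkbh1a1b library and 3 to 7 per wild-type library. The log2 change was 3.85 ± 0.28 (SE, limma adjusted p = 1.18e-08) in atalkbh1a1b and 4.20 ± 0.28 (SE, limma adjusted p = 2.28e-09) in wild type. CYP71B28, which starts 741 bases after the end of CYP71B2 and shares 68.5% of aligned coding bases with it, had 11.8, 16.6 and 6.94 RPKM in stratified and 22.9, 18.8 and 22.5 RPKM in dry atalkbh1a1b seeds, and 5.02, 4.75 and 10.6 RPKM in stratified and 25.1, 27.1 and 26.8 RPKM in dry wild-type seeds. It fell without overlap, by log2 changes of -0.88 ± 0.32 (SE, limma adjusted p = 0.0241) in atalkbh1a1b and -1.89 ± 0.32 (SE, limma adjusted p = 4.82e-05) in wild type, and the atalkbh1a1b call was lost when any of 4 atalkbh1a1b libraries was left out.

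Members lie close together: 113 of the 189 have another member within 10000 bases, in 38 clusters of up to 9 genes. Most cluster members were too low to test, and of 75 pairs of next neighbours 8 had both genes tested. In 3 of the 8 pairs in atalkbh1a1b and 4 of the 8 in wild type one gene rose and the other fell. In neither genotype did both genes of any of these 8 pairs rise or both fall. Pairs were formed among the 189 members alone, so P450 loci outside the group were passed over. CYP76C1, outside the group, lies between CYP76C4 and CYP76C2, and both CYP76C1 and CYP76C2 fell in both genotypes. The 4 pairs with opposite calls were singled out after their values were seen. Some genes stand in several of the 8 pairs, and opposite calls were not counted among other neighbouring genes. Opposite calls are therefore not shown to be particular to P450 neighbours. The wild-type calls of CYP72A13 and CYP705A21 lie near the threshold, as given below. Stretches of 50 bases found elsewhere in the genome made up at most 4.43% of the exons of the 8 genes in the 4 pairs, and the part of shared reads in their values was not tested.

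**Figure D3:**
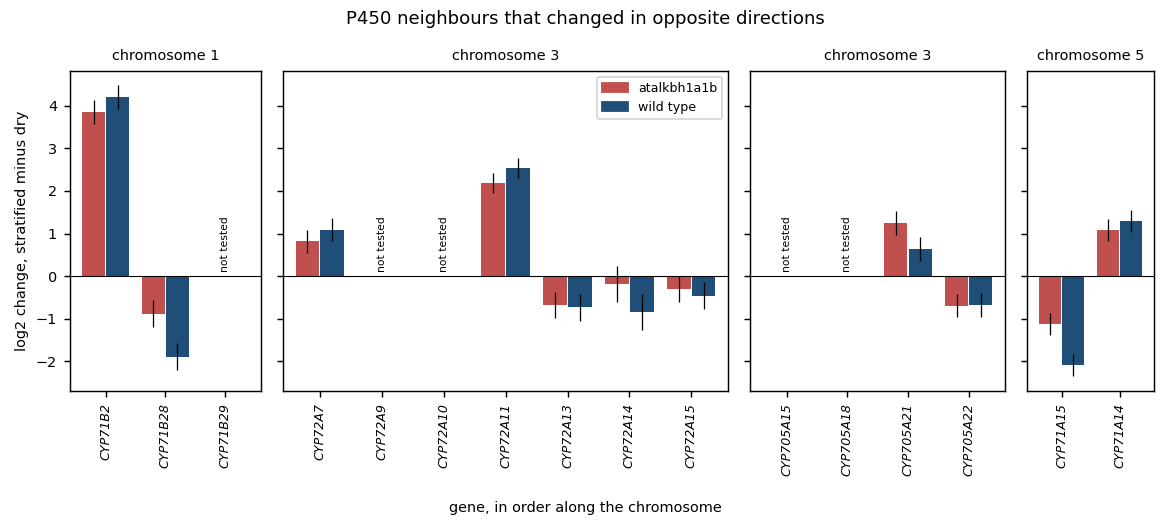
Log2 change after stratification (± SE) of P450 genes in the 4 clusters that hold a pair with opposite calls, in order along the chromosome, atalkbh1a1b left of wild type for each gene; genes below the level for a test are marked. CYP71B2 rose beside the falling CYP71B28, and CYP71A14 rose beside the falling CYP71A15.

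On chromosome 5, CYP71A14 and CYP71A15 lie 1973 bases apart and share 88.9% of aligned coding bases. CYP71A14 had 4.26, 3.44 and 1.91 RPKM in stratified and 0.943, 0.666 and 1.22 RPKM in dry atalkbh1a1b seeds, and 3.38, 4.95 and 3.04 RPKM in stratified and 0.968, 0.877 and 0.952 RPKM in dry wild-type seeds. CYP71A15 had 1.09, 1.44 and 0.638 RPKM in stratified and 3.74, 2.53 and 4.06 RPKM in dry atalkbh1a1b seeds, and 0.729, 0.282 and 1.13 RPKM in stratified and 5.79, 5.26 and 7.41 RPKM in dry wild-type seeds. Both changed without overlap. The log2 change of CYP71A14 was 1.08 ± 0.25 (SE, limma adjusted p = 0.00162) in atalkbh1a1b and 1.29 ± 0.25 (SE, limma adjusted p = 0.000243) in wild type, and that of CYP71A15 was -1.11 ± 0.26 (SE, limma adjusted p = 0.00147) in atalkbh1a1b and -2.08 ± 0.26 (SE, limma adjusted p = 2.09e-06) in wild type.

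On chromosome 3, CYP72A11 ends 82 bases before CYP72A13 begins, and they share 92.9% of aligned coding bases. CYP72A11 had 13.6, 12.6 and 9.37 RPKM in stratified and 2.0, 1.53 and 1.87 RPKM in dry atalkbh1a1b seeds, and 12.7, 15.7 and 12.3 RPKM in stratified and 1.21, 1.55 and 1.73 RPKM in dry wild-type seeds. It rose by log2 changes of 2.19 ± 0.24 (SE, limma adjusted p = 9.33e-07) in atalkbh1a1b and 2.54 ± 0.24 (SE, limma adjusted p = 8.43e-08) in wild type, without overlap. CYP72A13 had 35, 59 and 21.2 RPKM in stratified atalkbh1a1b and 41.1, 44.4 and 42.8 RPKM in stratified wild-type libraries, beside the dry values above. Its fall in wild type, a log2 change of -0.73 ± 0.31 (SE, limma adjusted p = 0.0453), was lost without the filter and when any of 10 libraries was left out, and it did not pass in atalkbh1a1b. In the same cluster CYP72A7 rose in both genotypes, its atalkbh1a1b call being lost without dry atalkbh1a1b library 2 or stratified atalkbh1a1b library 1 or 2, and CYP72A14 and CYP72A15 did not pass in either. The fourth pair, CYP705A21 and CYP705A22, lies 825 bases apart on the same chromosome and shares 78.4% of aligned coding bases. CYP705A21 rose by log2 changes of 1.26 ± 0.28 (SE, limma adjusted p = 0.000956) in atalkbh1a1b and 0.64 ± 0.28 (SE, limma adjusted p = 0.0482) in wild type, and CYP705A22 fell, with log2 changes of -0.69 ± 0.27 (SE, limma adjusted p = 0.0389) in atalkbh1a1b and -0.68 ± 0.27 (SE, limma adjusted p = 0.0368) in wild type. The wild-type call of CYP705A21 was lost without the filter, with median centring, with quantile normalization and when any of 8 libraries was left out.

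P450 enzymes need electron donors, and these did not all move one way. ATR1, taken into the group by its description, had 23.9, 28.9 and 13.5 RPKM in stratified and 32, 29.2 and 26.5 RPKM in dry atalkbh1a1b seeds, and 16.8, 17.6 and 19.8 RPKM in stratified and 34.3, 32.6 and 35.7 RPKM in dry wild-type seeds. It overlapped between states in atalkbh1a1b and not in wild type, where it fell, with log2 changes of -0.45 ± 0.27 (SE, limma adjusted p = 0.168) in atalkbh1a1b and -0.89 ± 0.27 (SE, limma adjusted p = 0.00829) in wild type. Of the 8 redox partner genes outside the group 7 were tested. In atalkbh1a1b 3 rose and none fell, and in wild type 3 rose and 2 fell. The second reductase, ATR2, fell in wild type, with a log2 change of -0.90 ± 0.26 (SE, limma adjusted p = 0.00511), and the membrane scaffold gene MSBP2 was called lower there, with -0.90 ± 0.35 (SE, limma adjusted p = 0.0282). MSBP2 had 28.3, 31.5 and 77 RPKM in stratified and 76.5, 78.9 and 77.5 RPKM in dry wild-type seeds, so the states overlapped through stratified library 3. Its call was lost in a fit of the 2 groups alone and when any of 5 wild-type libraries was left out. It was also lost with only the stratified libraries over 10% ribosomal RNA, in wild type library 3 alone. Among cytochrome b5 genes, CB5-A had 62.3, 61.4 and 35.1 RPKM in stratified and 5.13, 3.18 and 5.3 RPKM in dry atalkbh1a1b seeds, and 78.8, 97.9 and 55.8 RPKM in stratified and 3.0, 3.63 and 3.82 RPKM in dry wild-type seeds, and CB5-B and CB5-E also rose in both genotypes. For sterol and carotenoid synthesis, 4 of the 5 listed genes outside the group were tested, and CYP51G1, the sterol demethylase, rose in both genotypes, with log2 changes of 2.59 ± 0.27 (SE, limma adjusted p = 6.58e-07) in atalkbh1a1b and 2.86 ± 0.27 (SE, limma adjusted p = 1.06e-07) in wild type. The carotenoid hydroxylase CYP97A3 rose in both as well, but its atalkbh1a1b call was lost without the filter, with median centring, with quantile normalization and without stratified atalkbh1a1b library 1 or 2. None of the 3 listed sterol members of the group, all of family CYP710, was high enough to test.

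The genotypes responded to stratification in the same directions. All 15 members that rose in atalkbh1a1b also rose in wild type, and all 17 that fell in atalkbh1a1b also fell in wild type. No member had opposite calls, 19 were called in neither genotype, and 55 of the 60 changed with the same sign. Across the 60 genes, which are not independent replicates, the log2 changes of the genotypes correlated at r = 0.951. The comparisons of the genotypes share no library. These measures of agreement were not taken over all 15145 tested genes, so the agreement is not shown to be particular to P450 members. The 8 that fell in wild type and did not pass in atalkbh1a1b were CYP71B5, CYP71B12, CYP89A5, CYP702A6, AT2G12190, ATR1, AT3G60590 and CYP72A13.

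**Figure D4:**
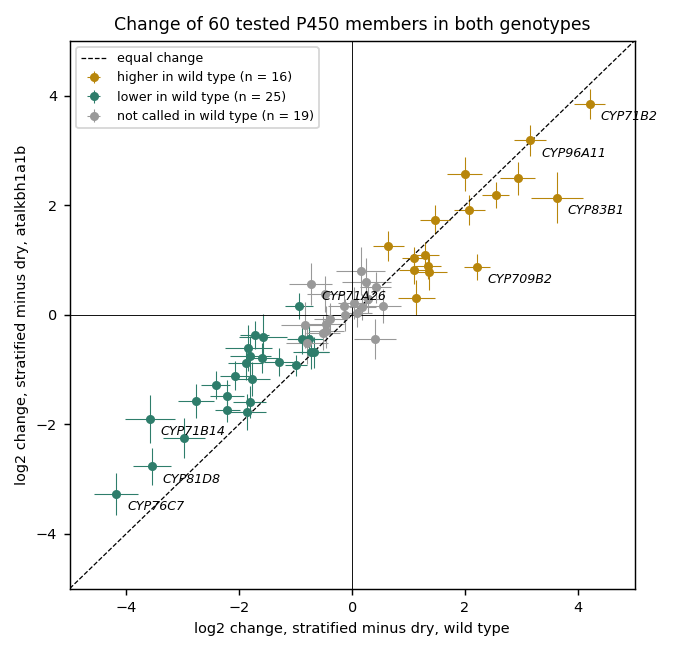
Log2 change after stratification (± SE) of the 60 tested members, wild type along the horizontal axis and atalkbh1a1b along the vertical axis; colour gives the wild-type call and the dashed line marks equal change. The points run along the line, with r = 0.951, and no member had opposite calls.

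A test of the difference itself, the interaction of genotype and stratification in limma, called 0 members higher and 0 lower, where 0.0066% and 0.0198% of all tested genes were called. Of the 60 members 10 had an unadjusted p under 0.05, and the lowest adjusted p was 0.572. The share of all tested genes under that unadjusted cut was not counted, so the 10 are not shown to be particular to P450 members. CYP709B2 had the smallest p: its rise was smaller in atalkbh1a1b, with a log2 difference of changes of -1.34 ± 0.33 (SE, limma adjusted p = 0.572). For CYP71B12, whose fall was smaller in atalkbh1a1b, it was 1.36 ± 0.36 (SE, limma adjusted p = 0.671), and 10.1% of its 50-base stretches occur elsewhere in the genome.

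In dry seeds limma called 0 members higher and 0 lower in atalkbh1a1b than in wild type, where 0.0264% and 0.0198% of all tested genes were called, and 5 members had an unadjusted p under 0.05. All tested genes under that unadjusted cut were not counted, so the 5 are not shown to be particular to P450 members. CYP78A6 had the smallest p of the 5. It stood at 3.47, 2.1 and 2.61 RPKM in dry atalkbh1a1b seeds, against 7.73, 7.12 and 6.11 RPKM in dry wild-type seeds, without overlap, a log2 difference of -1.11 ± 0.26 (SE, limma adjusted p = 0.442). AT2G12190, a P450 locus without a family name, stood at 1.19, 0.561 and 1.19 RPKM in dry atalkbh1a1b seeds, against 3.55, 2.68 and 2.84 RPKM in dry wild-type seeds, a log2 difference of -1.03 ± 0.24 (SE, limma adjusted p = 0.465). A share of 24.8% of its 50-base stretches occurs elsewhere in the genome.

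In stratified seeds limma called 1 member, CYP709B2, lower in atalkbh1a1b and 0 higher, where 0.172% of all tested genes were lower and 0.0396% higher. An unadjusted p under 0.05 was seen for 12 members. No count over all tested genes was made at that cut, so the 12 are not shown to be particular to P450 members. The 3 stratified atalkbh1a1b values of CYP709B2 given above, 0.739 to 1.98 RPKM, lay below the 3 stratified wild-type values, 3.17 to 5.08 RPKM. The log2 difference was -1.25 ± 0.23 (SE, limma adjusted p = 0.0287), and the call was lost when any of 10 libraries was left out. CYP71B12 had 1.77, 3.49 and 1.34 RPKM in stratified atalkbh1a1b seeds, against 0.247, 0.212 and 0.53 RPKM in stratified wild-type seeds. These did not overlap, yet the log2 difference of 1.22 ± 0.25 (SE, limma adjusted p = 0.060) missed the threshold. CYP83B1 and CYP71B14 came next, with log2 differences of -1.55 ± 0.46 (SE, limma adjusted p = 0.152) and 1.39 ± 0.44 (SE, limma adjusted p = 0.164).

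**Figure D5:**
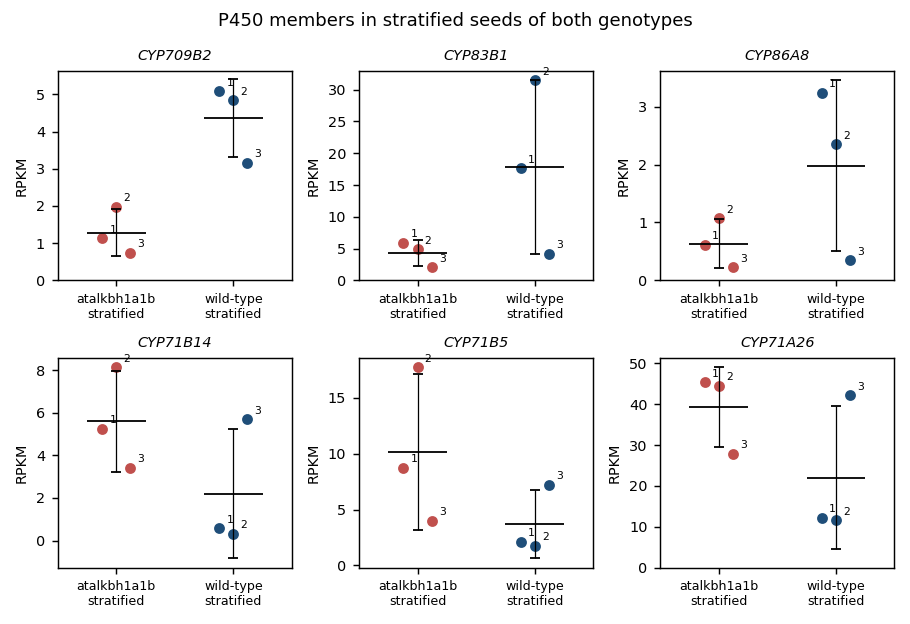
RPKM of CYP709B2, CYP83B1, CYP86A8, CYP71B14, CYP71B5 and CYP71A26, chosen after their values were seen, in the stratified libraries, atalkbh1a1b left of wild type; points are libraries numbered by replicate, lines are means and bars are SD. In all 6 panels wild-type library 3 lies nearer to the atalkbh1a1b libraries than wild-type libraries 1 and 2 do, and in all but CYP709B2 it lies within their range; for CYP71B12, which is not drawn, that library at 0.53 RPKM lay outside it.

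The genotype result in stratified seeds rested on stratified wild-type library 3. That library was singled out after its closeness to the atalkbh1a1b libraries was seen. Leaving it out therefore favours larger differences between the genotypes, and only wild-type libraries 1 and 2 remain in that group. The p-values below are subject to that choice. Without stratified wild-type library 3, 16 members were higher and 5 lower in atalkbh1a1b, where 5.48% of all tested genes were higher and 24.3% lower. The interaction then called 15 members higher and 3 lower, where 3.86% and 11.6% of all tested genes were called. CYP83B1 had a log2 difference of -2.30 ± 0.29 (SE, limma adjusted p = 2.66e-08) without that library, CYP71B14 2.12 ± 0.31 (limma adjusted p = 7.24e-07) and CYP709B2 -1.42 ± 0.23 (limma adjusted p = 4.40e-06). The other 3 lower ones were CYP86A8, CYP94C1 and CYP81F2, and the higher ones included CYP71B5, CYP71A26, CYP71B12 and CYP702A6. CYP71A26 shows the spread: it had 45.4, 44.5 and 27.9 RPKM in stratified atalkbh1a1b seeds, against 12.3, 11.6 and 42.2 RPKM in stratified wild-type seeds, and only wild-type library 3 reached the atalkbh1a1b range. Why this library differed from its group was not tested.

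Some members outside the test are of interest for their enzymes. Of the 8 that reached 1 RPKM in fewer than 3 libraries, 7 had their highest value in stratified wild-type library 2. CYP96A3, of the alkane hydroxylase family, had 0.29, 0.515 and 0.24 RPKM in stratified and 0.0373, 0 and 0 RPKM in dry atalkbh1a1b seeds, and 1.01, 2.6 and 0.44 RPKM in stratified wild-type seeds, and was listed at 0 in the 3 dry wild-type libraries. Against a floor of 3 reads per library, its stratified wild-type mean was at least 14.2-fold higher. CYP81F3, a relative of CYP81F2, had 0.779, 0.296 and 0.415 RPKM in stratified and 0.0304, 0 and 0 RPKM in dry atalkbh1a1b seeds, and 0.961, 1.33 and 0.91 RPKM in stratified and 0, 0 and 0.0289 RPKM in dry wild-type seeds. Single values this low stand for few reads, and no test was made of them.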

How the data were processed

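Seeds of 2 genotypes and 2 states were compared, with groups and replicate numbers taken from the sample titles. The authors deposited RPKM values per locus. STAR, DESeq2 and TAIR10 stand in the submitters' processing notes, without roles. How reads were counted, by strand or not, and how reads matching several copies were treated, is not given in the sources used here. RPKM falls in every other gene where a few transcripts or ribosomal RNA take many reads. With exon lengths of TAIR10.1 (RefSeq annotation), at least 99.2% of low values in each library came out as whole reads within 0.05 reads, which gave the depth. Floors of 3 reads cover counting error only.

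The test was limma 3.58.1 (R 4.3.3) on log2(RPKM + 1). A single model of the 4 group means with a mean-variance trend covered the 15145 genes that reached 1 RPKM in 3 or more libraries; this scale understates changes of low genes. Tests were 2-sided, p-values were adjusted by Benjamini and Hochberg's method over each of 5 contrasts, and the fit was tested on simulated data. Replicate pairs differed by 3.07 to 451 chi-square per degree of freedom, so none was a repeat deposit. Neighbouring coding sequences were aligned with MAFFT 7.526. Alternatives were a pseudocount of 0.1, no filter, median centring, quantile normalization, a replicate block, ribosomal RNA over 10% as a factor, stratified libraries on either side of 10% alone, the 2 groups alone, and each library left out.

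Members were named by a rule: per contrast up to 8 highest and 8 lowest that passed with a change of 2-fold or more, no overlap of libraries and a mean reaching 5 RPKM; the 6 highest per group; up to 3 per role list and direction; the 4 with the smallest p per genotype contrast; and fixed pathway and redox genes. Other members named were chosen after their values were seen. The members, the 10 role lists and the rule were chosen with earlier results of these data known.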

Additional observations from a re-analysis of the deposited data

How the results depend on the processing

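Direction held for all but 4 of the results for single genes: with quantile normalization AT2G12190 turned to -0.49 in atalkbh1a1b, CYP75B1 to -0.44 in atalkbh1a1b and -0.57 in wild type, and CYP97C1 to -0.10 in wild type. Quantile normalization moved the median change of all genes by -0.53 in atalkbh1a1b and -0.65 in wild type. It gave 32 fallers in atalkbh1a1b and 39 in wild type, 1 member lower in dry atalkbh1a1b seeds, 1 higher in stratified ones and 1 lower in the interaction, and it ended the calls of CYP709B2, CYP94C1, CYP86A4 and CYP97A3 in atalkbh1a1b and of CYP78A5, CYP86A4, CYP86A8 and CYP705A21 in wild type. Median centring gave 29 fallers in atalkbh1a1b and 1 member higher in stratified atalkbh1a1b seeds. The larger numbers of fallers under both normalizations went with larger numbers over all tested genes, given above. Without the filter 32 members rose in wild type. In stratified atalkbh1a1b seeds 1 member was higher and 0 lower with a pseudocount of 0.1 and in a fit of the 2 groups alone, and 1 higher with ribosomal RNA as a factor. The cause was not tested.

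With only the stratified libraries at or under 10% ribosomal RNA, 27 members rose in atalkbh1a1b, 5 were lower in dry atalkbh1a1b seeds, 30 higher and 3 lower in stratified ones, and the interaction called 30 higher and 3 lower; 1 atalkbh1a1b library is left there and is assumed to vary like the other groups. With only those over 10%, 26 fell in atalkbh1a1b, 3 were lower in dry and 2 in stratified atalkbh1a1b seeds, 2 were lower in the interaction, and CYP702A6 and ATR1 lost their wild-type calls.

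Leaving out each library in turn gave 13 to 20 risers and 14 to 22 fallers in atalkbh1a1b, 15 to 17 and 22 to 27 in wild type, 0 to 2 lower in dry and 0 to 16 higher and 0 to 5 lower in stratified atalkbh1a1b seeds, and 0 to 15 higher and 0 to 3 lower in the interaction; each upper end between genotypes came without stratified wild-type library 3. The shares of all tested genes without that library are given above for stratified seeds and the interaction. For the other libraries left out they were not counted. Replicate numbers were not used as pairs in the main fit. Deviations of same-numbered libraries correlated at -0.32 to 0.20. Differently numbered libraries were not compared in this way, so these values cannot decide whether the samples were paired. A replicate block gave 15 risers and 17 fallers in atalkbh1a1b, 15 and 25 in wild type, and 1 higher and 2 lower in stratified atalkbh1a1b seeds.

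Depth limits the low members: 129 of 189 could not be tested, and a member listed at 0 is known only to lie under a floor of 3 reads per library.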
